A study of Naumovozyma castellii with 14 samples.

Results

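In the budding yeast Naumovozyma castellii, 47 of 5599 annotated mRNAs were at least 3 times as abundant in cells lacking Upf1 as in wild-type cells, while after cycloheximide treatment of both strains they were less than 1.3 times as abundant in the cells lacking Upf1 as in wild type. The genes were chosen from the group means of the deposited normalised read density, the reads on a gene per base of its length after scaling each library by its size factor, here called normalised reads per base. A gene had to reach a mean density of 0.05 in wild type, a upf1/WT ratio of 3 and a upf1 CHX/WT CHX ratio under 1.3. Of 5101 mRNAs at the wild-type limit, 303 had a upf1/WT ratio of 3 or more. The 47 are the smaller share of those, and the other 256 had a upf1 CHX/WT CHX ratio of 1.3 or more. In the gene table of RefSeq all 47 were found, 30 with a symbol shared with Saccharomyces cerevisiae and 17 with a systematic name alone.

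Upf1 is an RNA helicase and the central factor of nonsense-mediated decay (NMD). This pathway degrades mRNAs on which the ribosome stops early, among them transcripts with premature stop codons or short upstream reading frames. It also degrades some mRNAs with long 3′ ends. The pathway acts on mRNAs while they are being translated. Cycloheximide, which arrests elongating ribosomes, is therefore a common way to block it in cells that still carry Upf1. Dcr1 is the Dicer enzyme of RNA interference, a pathway that S. cerevisiae has lost and N. castellii has kept.

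Total RNA of 14 libraries in 5 groups was sequenced after depletion of ribosomal RNA. The groups were upf1 CHX (upf1::kanMX6, with cycloheximide, 2 libraries), WT CHX (wild type, with cycloheximide, 2 libraries), dcr1 upf1 (dcr1 with upf1::kanMX6, untreated, 2 libraries), upf1 (upf1::kanMX6, untreated, 4 libraries) and WT (wild type, untreated, 4 libraries). Cycloheximide was given at 100 µg per mL for 15 min. All strains were MATalpha ura3-1 ho and grew in rich medium at 25 °C to an optical density of 0.5, and each genotype was a single strain, so the effect of a mutation and of the strain that carries it cannot be told apart. The labels do not say whether replicates came from separate cultures, so p-values measure the spread between these samples, which may be technical.

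Recovered reads ranged from 7895089 to 22437334 per library. The deposited size factors matched those computed over 37 snoRNAs within 0.0315 on the log2 scale, and those over the mRNAs within 0.899, so a density is read here relative to the snoRNAs. A change of scale moves the treated groups against the untreated ones: the median mRNA was 1.35 higher on the log2 scale in WT CHX than in WT at the deposited scale, and 0.07 higher when libraries were scaled to the median ratio over the mRNAs (mRNA-ratio scaling). In bulk RNA, fewer cells with a transcript and less of it per cell cannot be told apart. The gene for Upf1, named NAM7 in the table, had 0 reads in all 8 libraries of strains lacking it, against 2335 to 2584 in WT CHX and 1074 to 1601 in WT. Counted with a floor of 3 reads per group, upf1 CHX was at least 2657-fold lower against WT CHX, dcr1 upf1 at least 2053-fold lower against WT, and upf1 at least 2218-fold lower against WT.

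Both ratios of the rule are descriptions, since they chose the genes. The upf1/WT ratio of the 47 ran between 3.001 and 6.20 with a median of 3.40, 26 genes lay under 3.5, and 11 reached 4. In every one of the 47 all 4 upf1 libraries lay above all 4 WT libraries, which the rule favours, and 33.3% of 5446 mRNAs tested did so. Taken by replicate number, the median ratio was 3.003, 3.40, 4.31 and 3.27 for replicates 1 to 4, and 17 genes had a ratio of 3 or more at all 4 numbers. Same-numbered libraries need not be pairs, so these values depend on a matching by number alone. Replicate 3 was the highest upf1 library in 38 genes. At the limit of 3, ATG31 (3.001), LDB18 (3.02) and NCAS_0J00570 (3.03) lay just inside, and MTC2 (2.99) and SEI1 (2.96) just outside. At the wild-type density limit of 0.05, NCAS_0C02450 (0.0555), NCAS_0I03200 (0.0622) and HO (0.0628) were the nearest inside, and STE2 (0.0496), NCAS_0J01070 (0.0487) and NCAS_0C03460 (0.0474) the nearest outside.

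In the treated strains the values are likewise those that chose the genes. The upf1 CHX/WT CHX ratio had a median of 1.19 over the 47, against 0.911 over all 5101 mRNAs at the wild-type limit. It lay between 1 and 1.3 in 44 genes, 20 of them at 1.2 or above. Both upf1 CHX libraries lay above both WT CHX libraries in 38 genes, and 18.2% of all mRNAs tested did so. Only NCAS_0G02180 (0.514), NCAS_0J00570 (0.617) and NCAS_0E01840 (0.875) were lower in upf1 CHX. Matched by number alone, replicate 1 gave a median ratio of 1.303, with 22 of the 47 under 1.3. Replicate 2 gave a median of 1.07, with all 47 under 1.3. Without upf1 CHX replicate 1 the rule chose 71 genes, and without upf1 CHX replicate 2 it chose 32. MRX8 (1.297), FAR3 (1.297) and NCAS_0I03160 (1.29) lay just inside the limit, and ATG12, ANB1 and CPA1 (each 1.31) just outside. Scaled to the median ratio over the mRNAs, the rule chose 12 genes, 9 of the 47 among them. The genes are called here by the rule, which sets no lower limit on that ratio.

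**Figure D1:**
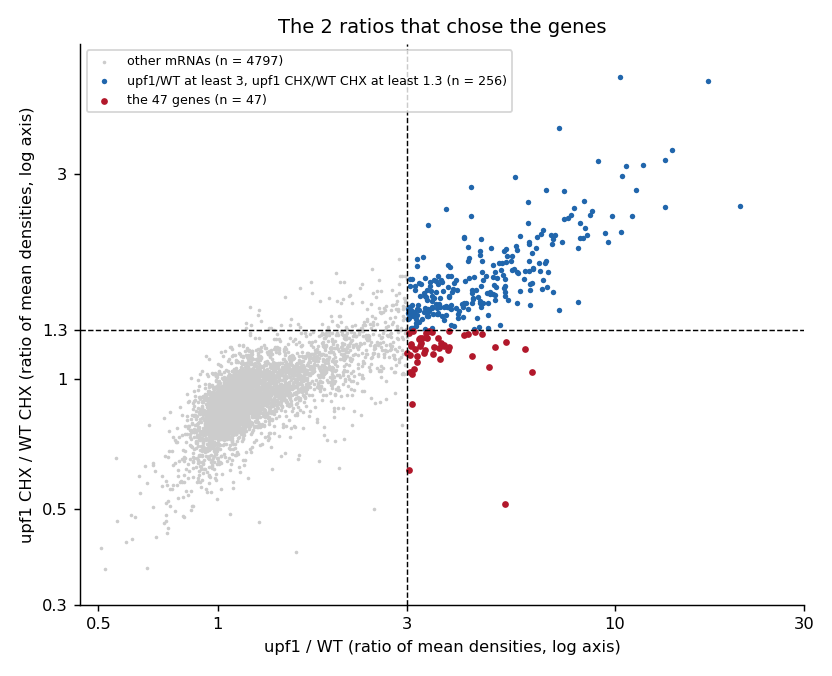
Ratio of mean densities upf1 CHX/WT CHX (vertical, log axis) against upf1/WT (horizontal, log axis) for the mRNAs at the wild-type limit other than NAM7, with the 47 genes in red and the limits of 3 and 1.3 dashed. The 47 form the lower edge of the genes past the limit of 3, and 44 of them lie between 1 and 1.3.

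PPT2, which in S. cerevisiae encodes the transferase that activates the mitochondrial acyl carrier protein, had the highest upf1/WT ratio (6.20). Its densities were 0.346 and 0.334 in upf1 CHX, 0.327 and 0.326 in WT CHX, 0.316 and 0.318 in dcr1 upf1, 0.326, 0.297, 0.520 and 0.451 in upf1, and 0.0749, 0.0488, 0.0528 and 0.0806 in WT. It was the sole gene of the 47 whose highest group was upf1, and it lay at nearly one level in the treated groups and in dcr1 upf1. Its WT values rest on 20 to 36 reads per library.

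NCAS_0A04130 followed with a ratio of 5.95, and carries no symbol. Its densities were 1.71 and 1.54 in upf1 CHX, 1.37 and 1.39 in WT CHX, 0.542 and 0.596 in dcr1 upf1, 0.586, 0.581, 0.832 and 0.714 in upf1, and 0.121, 0.110, 0.105 and 0.120 in WT. Here the treated groups stood well above every untreated library, and upf1 CHX exceeded WT CHX in both libraries. The third in rank, NCAS_0A12240, had 0.655 and 0.512 in upf1 CHX, 0.470 and 0.487 in WT CHX, 0.357 and 0.368 in dcr1 upf1, 0.358, 0.393, 0.560 and 0.600 in upf1, and 0.0664, 0.0890, 0.103 and 0.101 in WT. Its upf1 libraries overlapped both treated groups.

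NCAS_0G02180 is the shortest of the 47, with 105 bases on chromosome 7, bases 390421 to 390525 on the minus strand in the coordinates of the deposited table. Its densities were 3.64 and 3.33 in upf1 CHX, 6.61 and 6.94 in WT CHX, 1.81 and 1.96 in dcr1 upf1, 1.87, 2.10, 2.40 and 2.07 in upf1, and 0.422, 0.354, 0.382 and 0.435 in WT. WT CHX was the highest group, above both upf1 CHX libraries, and the groups did not overlap in any pair other than dcr1 upf1 and upf1. NCAS_0J00570, of 933 bases on chromosome 10, had the same order. Its densities were 0.737 and 0.650 in upf1 CHX, 1.13 and 1.12 in WT CHX, 0.153 and 0.170 in dcr1 upf1, 0.154, 0.188, 0.256 and 0.218 in upf1, and 0.0701, 0.0442, 0.0760 and 0.0786 in WT. NCAS_0E01840 had 0.415 and 0.405 in upf1 CHX, 0.462 and 0.475 in WT CHX, 0.192 and 0.20 in dcr1 upf1, 0.182, 0.208, 0.202 and 0.194 in upf1, and 0.0702, 0.0635, 0.0613 and 0.0596 in WT, so that WT CHX was again above upf1 CHX in both libraries, by a narrower margin.

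HO encodes the endonuclease that starts mating-type switching in S. cerevisiae. All strains carry an allele named ho of a nature not given in the sources used here, and reads fell on the gene in every library. Its densities were 0.515 and 0.503 in upf1 CHX, 0.444 and 0.508 in WT CHX, 0.224 and 0.264 in dcr1 upf1, 0.285, 0.253, 0.343 and 0.333 in upf1, and 0.0712, 0.0602, 0.0573 and 0.0625 in WT. The treated groups overlapped each other and lay above all untreated libraries. TEN1, whose product belongs to the complex that caps telomeres in S. cerevisiae, is the sole one of the 47 in a list of documented NMD targets of that yeast. Its densities were 0.947 and 0.835 in upf1 CHX, 0.677 and 0.873 in WT CHX, 0.498 and 0.634 in dcr1 upf1, 0.496, 0.565, 0.650 and 0.554 in upf1, and 0.162, 0.170, 0.158 and 0.196 in WT. Its dcr1 upf1 and upf1 libraries overlapped, and so did the treated groups.

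Among nutrient transporters, MEP2 encodes an ammonium permease, GAP1 the general amino acid permease and VHT1 the biotin transporter of S. cerevisiae. MEP2 had 0.798 and 0.673 in upf1 CHX, 0.563 and 0.599 in WT CHX, 0.404 and 0.453 in dcr1 upf1, 0.497, 0.440, 0.500 and 0.584 in upf1, and 0.134, 0.0964, 0.119 and 0.136 in WT. GAP1 had 0.411 and 0.397 in upf1 CHX, 0.361 and 0.377 in WT CHX, 0.178 and 0.222 in dcr1 upf1, 0.230, 0.255, 0.237 and 0.255 in upf1, and 0.0817, 0.0643, 0.0618 and 0.10 in WT. For both, WT lay far below the rest, and upf1 CHX was the highest group in each of its libraries. VHT1 had 2.17 and 1.98 in upf1 CHX, 2.05 and 1.99 in WT CHX, 0.622 and 0.647 in dcr1 upf1, 0.662, 0.660, 0.959 and 0.891 in upf1, and 0.280, 0.218, 0.221 and 0.309 in WT. Its treated groups overlapped, far above every upf1 library.

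HRR25 encodes a casein kinase listed here among NMD factors. Its densities were 0.759 and 0.677 in upf1 CHX, 0.679 and 0.698 in WT CHX, 0.442 and 0.487 in dcr1 upf1, 0.481, 0.447, 0.698 and 0.617 in upf1, and 0.167, 0.153, 0.184 and 0.231 in WT. The upf1 libraries spanned a range that reached into both treated groups, with replicates 3 and 4 the higher ones. AMA1, an activator of the anaphase-promoting complex in meiosis, had 0.342 and 0.325 in upf1 CHX, 0.271 and 0.278 in WT CHX, 0.235 and 0.255 in dcr1 upf1, 0.247, 0.239, 0.368 and 0.332 in upf1, and 0.0781, 0.0804, 0.0854 and 0.0801 in WT. YEN1, a resolvase of Holliday junctions, had 0.488 and 0.463 in upf1 CHX, 0.402 and 0.434 in WT CHX, 0.294 and 0.310 in dcr1 upf1, 0.310, 0.30, 0.395 and 0.360 in upf1, and 0.129, 0.0926, 0.108 and 0.119 in WT. In AMA1 the upf1 libraries overlapped the treated groups, and in YEN1 they stayed below upf1 CHX.

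**Figure D2:**
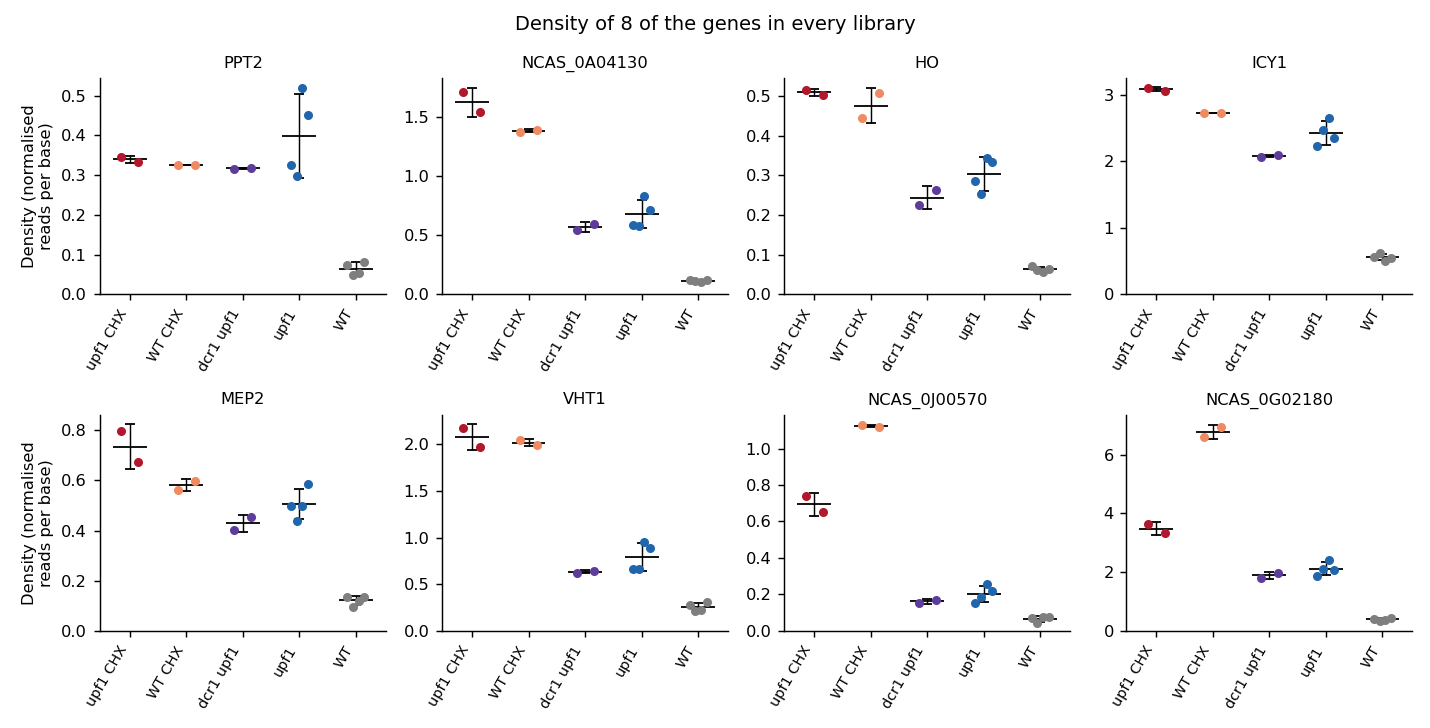
Density in normalised reads per base of 8 of the genes in each library, with a point per library, a line at the group mean and bars of 1 SD (n = 2 for upf1 CHX, WT CHX and dcr1 upf1, n = 4 for upf1 and WT). In PPT2 the upf1 group reaches the highest values, and in NCAS_0J00570 and NCAS_0G02180 WT CHX lies above upf1 CHX.

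The next 6 genes are described together for their roles in S. cerevisiae, chosen after their values were seen and with no count against other genes. HSH49 encodes a subunit of the U2 snRNP, PRP21 another, PRP5 an RNA helicase that acts with it, CWC27 a spliceosome-associated protein, SWM2 a factor for the caps of small RNAs, and POP3 a subunit of RNase P. HSH49 had 0.921 and 0.861 in upf1 CHX, 0.657 and 0.838 in WT CHX, 0.330 and 0.390 in dcr1 upf1, 0.389, 0.373, 0.445 and 0.356 in upf1, and 0.113, 0.0781, 0.0952 and 0.122 in WT. The treated groups of HSH49 stood above all untreated libraries. PRP5 had group means of 0.392 ± 0.0386 in upf1 CHX, 0.315 ± 0.0262 in WT CHX, 0.206 ± 0.00742 in dcr1 upf1, 0.267 ± 0.0550 in upf1 and 0.0745 ± 0.00445 in WT (SD, n = 2, 2, 2, 4 and 4). POP3 had 1.25 ± 0.0973 in upf1 CHX, 1.04 ± 0.0239 in WT CHX, 0.699 ± 0.0290 in dcr1 upf1, 0.965 ± 0.271 in upf1 and 0.260 ± 0.0575 in WT, with the same n.

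ICY1 had the highest WT density of the 47. Its densities were 3.11 and 3.07 in upf1 CHX, 2.73 and 2.73 in WT CHX, 2.07 and 2.09 in dcr1 upf1, 2.23, 2.48, 2.65 and 2.36 in upf1, and 0.565, 0.617, 0.498 and 0.549 in WT. All upf1 libraries of ICY1 lay below the treated groups and above dcr1 upf1. The next in WT density were NCAS_0G02180 (0.398), SKM1 (0.317), POP3 (0.260), VHT1 (0.257), DSE3 (0.232), NCAS_0G00850 (0.207) and NCAS_0E00840 (0.201). Over all 47 the WT mean ran between 0.0555 and 0.557. Reads per gene and library had medians of 790.5 in upf1 CHX, 479.5 in WT CHX, 723 in dcr1 upf1, 448.5 in upf1 and 111 in WT, with 16 as the lowest and 493 as the highest number in WT.

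The genes not described elsewhere were NCAS_0J00530, SLX8, ECM3 and NCAS_0A05250, with upf1/WT ratios of 3.32, 3.24, 3.17 and 3.12 in that order. SLX8 encodes a subunit of a SUMO-targeted ubiquitin ligase in S. cerevisiae.

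WT was the lowest group in all 47 genes, as the rule requires of upf1 against WT. Ranked downwards, the group means stood in the order upf1 CHX, WT CHX, upf1, dcr1 upf1 and WT in 39 genes. The highest group was upf1 CHX in 43, WT CHX in 3 and upf1 in 1. These ranks are those of the deposited scale and were not counted over other mRNAs. Over all mRNAs at the wild-type limit the median ratio was 2.04 for WT CHX/upf1, 0.857 for dcr1 upf1/upf1 and 0.911 for upf1 CHX/WT CHX. Under mRNA-ratio scaling 9 of the 47 had a positive log2 fold change in upf1 CHX against upf1. The median density over the 47 was 0.798 and 0.677 in upf1 CHX, 0.615 and 0.636 in WT CHX, 0.357 and 0.381 in dcr1 upf1, 0.389, 0.393, 0.488 and 0.445 in upf1, and 0.128, 0.102, 0.103 and 0.126 in WT. The smallest gaps between groups in these medians lay between dcr1 upf1 and upf1 and between upf1 CHX and WT CHX.

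**Figure D3:**
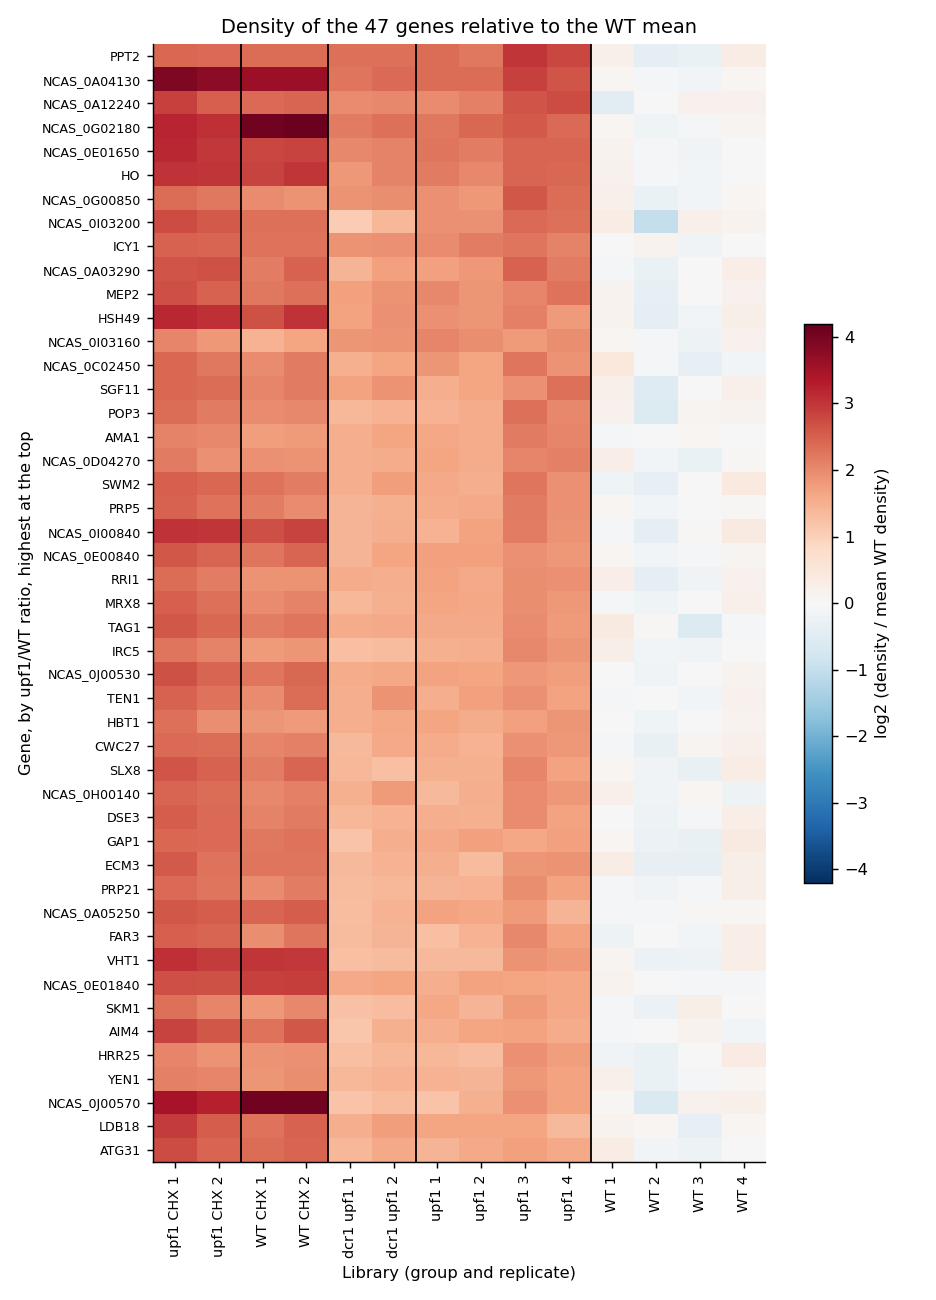
Density of each of the 47 genes in each library relative to its WT mean, as log2 ratio (colour), with genes ordered by upf1/WT ratio and libraries grouped. At the deposited scale WT is the lowest group in every row, and the treated groups are the highest in most rows.

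The dcr1 upf1 libraries took no part in the choice of the genes, so they show the loss of Upf1 in libraries the rule did not use, in a strain that also carries the dcr1 mutation. All 47 genes were higher in dcr1 upf1 than in WT at a limma adjusted p under 0.05 over 7518 features, as were 24.1% of the 5446 mRNAs, with 4.26% lower. Their median log2 fold change was 1.37, on the scale of log2(density + 0.02), against 0.06 over the mRNAs. The WT libraries of this comparison also chose the genes, and low WT values were favoured. The excess over the share of the mRNAs is therefore in part fixed by the choice, and the p-values are not those of an independent test. NCAS_0G02180 changed by 2.19 ± 0.125 (SE, limma adjusted p = 5.65e-10), NCAS_0A04130 by 2.14 ± 0.143 (SE, limma adjusted p = 2.88e-09) and PPT2 by 2.02 ± 0.198 (SE, limma adjusted p = 3.37e-07). HO rose by 1.67 ± 0.139 (SE, limma adjusted p = 3.94e-08) and ICY1 by 1.87 ± 0.115 (SE, limma adjusted p = 1.24e-09). The smallest rise was that of NCAS_0I03200, 1.06 ± 0.219 (SE, limma adjusted p = 0.00115). As a ratio of means, dcr1 upf1/WT ran between 2.37 and 4.99 with a median of 2.94, and 19 genes reached 3. Under mRNA-ratio scaling all 47 stayed higher, when 24.7% of the mRNAs were higher and 29.5% lower.

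Between dcr1 upf1 and upf1 no gene of the 47 passed the limma test in either direction. The shares over the mRNAs were 0.239% higher and 0.110% lower. At an unadjusted p under 0.05 there were 6, all lower in dcr1 upf1, beside 0.753% of the mRNAs higher and 12.7% lower. The upf1 libraries of this comparison also chose the genes, and high upf1 values were favoured. The median log2 fold change was −0.24, against −0.20 over the mRNAs, and −0.04 under mRNA-ratio scaling. Both dcr1 upf1 libraries lay below all upf1 libraries in 20 genes, against 29.9% of the mRNAs. NCAS_0I03200 had densities of 0.131 and 0.163 in dcr1 upf1 and 0.236, 0.235, 0.326 and 0.309 in upf1, and a log2 fold change of −0.82 ± 0.219 (SE, limma adjusted p = 0.277). That gene was called lower with a pseudocount of 0.1, with replicates 1 and 2 alone, and with voom on the recovered reads. NCAS_0A03290 differed by −0.46 ± 0.190 (SE, limma adjusted p = 0.395) and POP3 by −0.41 ± 0.223 (SE, limma adjusted p = 0.395). TEN1 and LDB18, with LDB18 at 0.364 and 0.423 in dcr1 upf1 and 0.398, 0.396, 0.400 and 0.325 in upf1, had their 2 groups overlapping.

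All 47 genes had higher densities in WT CHX than in WT, as nearly all other mRNAs did. The libraries of both groups took part in the choice, so the values are a description and no p is given. Past the limma threshold of adjusted p 0.05 were 47 of 47, higher in WT CHX, beside 98.1% of the mRNAs. The median log2 fold change was 2.05 over the 47 and 1.35 over the mRNAs. The largest were those of NCAS_0G02180 at 4.03 ± 0.125 (SE), NCAS_0J00570 at 3.73 ± 0.184 (SE) and NCAS_0A04130 at 3.39 ± 0.143 (SE). VHT1 was higher by 2.89 ± 0.169 (SE) and HSH49 by 2.65 ± 0.157 (SE). The smallest were those of NCAS_0I03160 at 1.49 ± 0.131 (SE) and AMA1 at 1.55 ± 0.152 (SE), which came to −0.033 and −0.015 under quantile normalization. HBT1, IRC5 and RRI1, next in order, were higher by 1.58, 1.61 and 1.63, and were not past the threshold under mRNA-median scaling and quantile normalization. Measured against the mRNAs by mRNA-ratio scaling, 46 of the 47 were past the threshold and higher in WT CHX, the exception being NCAS_0I03160. Of the mRNAs 33.9% were higher and 24.8% lower. The median log2 fold change over the 47 was 0.81. The rule favours a count above the share of the mRNAs, so the excess is not a result about the 47.

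The size of that difference is in part fixed by the choice of the genes, because the rule uses the WT and WT CHX libraries. Combined, its limits require that the cycloheximide ratio in wild type exceed that in upf1 by at least 2.31-fold for each gene. The WT CHX/WT ratio of means had a median of 4.79 over the 47, 3.78 over the 256 genes still higher in upf1 CHX and 2.64 over all mRNAs at the wild-type limit.

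In cells lacking Upf1 the log2 fold changes under the same treatment were smaller. The rule fixes this direction for the ratio of means of each gene, so it is not a result. Both groups took part in the choice, so these values too are a description with no p. In upf1 CHX against upf1 39 of the 47 were higher and 0 lower past the limma threshold, beside 90.8% of the mRNAs higher and 0.110% lower. The median log2 fold change was 0.65 over the 47 and 0.86 over the mRNAs. NCAS_0J00570 was higher by 1.69 ± 0.184 (SE), VHT1 by 1.38 ± 0.169 (SE) and NCAS_0A04130 by 1.25 ± 0.143 (SE), and these 3 stayed higher and past the threshold under each scaling. HSH49 with 1.15 ± 0.157 (SE) and NCAS_0I00840 with 1.17 ± 0.177 (SE) kept their sign but were not past the threshold under the other scalings. The 8 genes not past the threshold were PPT2, NCAS_0I03160, NCAS_0G00850, AMA1, NCAS_0D04270, NCAS_0A12240, HRR25 and POP3. In each of the 8 the upf1 CHX and upf1 libraries overlapped. PPT2 differed by −0.18 ± 0.198 (SE), and by 0.12 with replicates 1 and 2 alone.

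Read against the mRNAs, the direction in upf1 turned for most of the genes. Under mRNA-ratio scaling 3 of the 47 were past the threshold and higher in upf1 CHX than in upf1 and 26 were lower, beside 21.2% of the mRNAs higher and 30% lower. The median log2 fold change was then −0.29 over the 47 and −0.06 over the mRNAs. The rule favours high upf1 and low upf1 CHX values, so the excess of lower genes is not a result about the 47. HO was higher by 0.72 ± 0.139 (SE) at the deposited scale and stood at −0.21 under mRNA-ratio scaling. TEN1 was higher by 0.64 ± 0.149 (SE) and stood at −0.31 there, and GAP1 was higher by 0.68 ± 0.151 (SE) and stood at −0.23. MEP2 with 0.53 ± 0.146 (SE) and YEN1 with 0.46 ± 0.139 (SE) stood at −0.42 and −0.46 there. Without upf1 CHX replicate 1 neither was past the threshold, with values of 0.41 for MEP2 and 0.43 for YEN1. HRR25 stood at 0.37 ± 0.174 (SE) and at −0.58 under mRNA-ratio scaling. It was past the threshold, and higher, in 6 other settings, at 0.32 with a pseudocount of 0.1, 0.57 with the replicate block, 0.61 with replicates 1 and 2 alone, 0.47 without upf1 replicate 3, 0.42 without upf1 replicate 4 and 0.39 with voom.

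**Figure D4:**
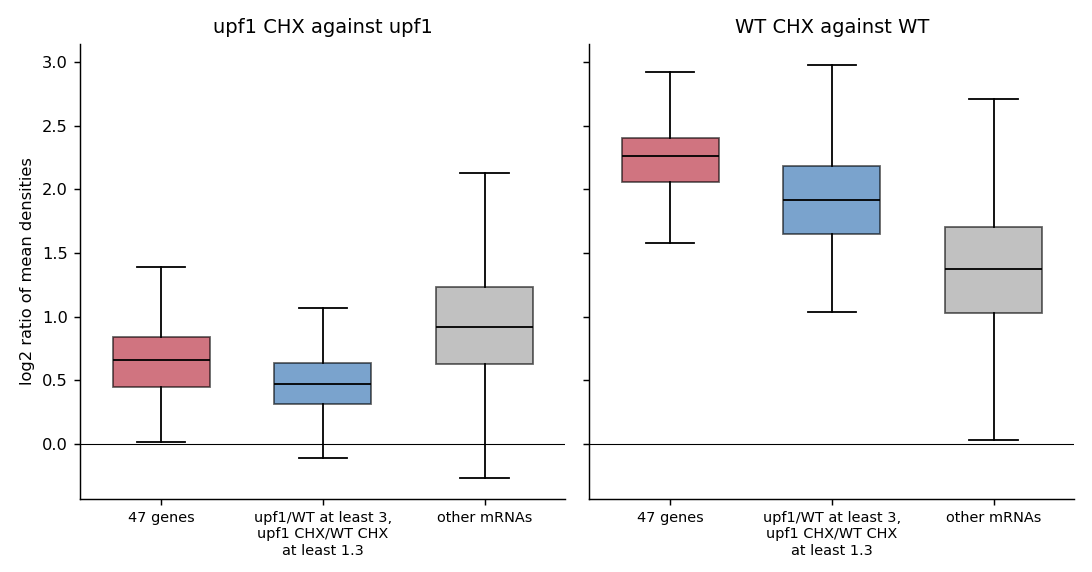
Log2 ratio of mean densities for upf1 CHX against upf1 (left) and WT CHX against WT (right) in the 47 genes, the 256 genes with upf1 CHX/WT CHX of 1.3 or more, and the other mRNAs at the wild-type limit (box over the middle quartiles, line at the median, whiskers to the last value within 1.5 box lengths, further points not drawn). The 47 lie above the other mRNAs in the right panel and below them in the left one, an order in which the rule takes part.

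The groups WT CHX and upf1 have one change each against WT, the drug in one and the mutation in the other. WT CHX had the higher mean in 43 of the 47 genes, and all of its libraries lay above all upf1 libraries in 28, beside 88.8% of the mRNAs. The WT CHX/upf1 ratio of means had a median of 1.31 over the 47, 0.818 over the 256 genes and 2.04 over all mRNAs at the wild-type limit. These values hold at the deposited scale. There the median log2 fold change against WT over the 47 was 2.05 for WT CHX and 1.61 for upf1. Under mRNA-ratio scaling the medians stood in the other order, at 0.81 for WT CHX and 1.34 for upf1. Both groups took part in the choice, so no test is given.

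The coding length of the 47 ran between 105 and 4467 bases with a median of 990. The 256 genes had a median of 1002 bases and all mRNAs at the wild-type limit one of 1254. Under 1000 bases were 24 of the 47 (51.1%), 49.6% of the 256 and 36.9% of all. The longest were NCAS_0E01650 (4467 bases), NCAS_0D04270 (3327), HBT1 (3252), PRP5 (2664) and IRC5 (2541). HBT1 acts in polarised growth of S. cerevisiae, and IRC5 encodes an ATPase of the Snf2 family. The shortest after NCAS_0G02180 were SGF11 (300), which encodes a subunit of the SAGA deubiquitinase, AIM4 (348), NCAS_0A12240 (429) and SWM2 (447). Short and long genes alike were among the highest in upf1/WT ratio: NCAS_0E01650 stood at 4.99, with 0.806 and 0.694 in upf1 CHX, 0.628 and 0.636 in WT CHX, 0.360 and 0.379 in dcr1 upf1, 0.420, 0.394, 0.488 and 0.485 in upf1, and 0.0994, 0.0861, 0.0814 and 0.0909 in WT.

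WT density was low, which a ratio with WT below the line favours. Its median was 0.112 normalised reads per base over the 47, 0.129 over the 256 genes and 0.295 over all mRNAs at the limit. Under 0.1 were 20 of the 47 (42.6%), 28.9% of the 256 and 10.1% of all.

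**Figure D5:**
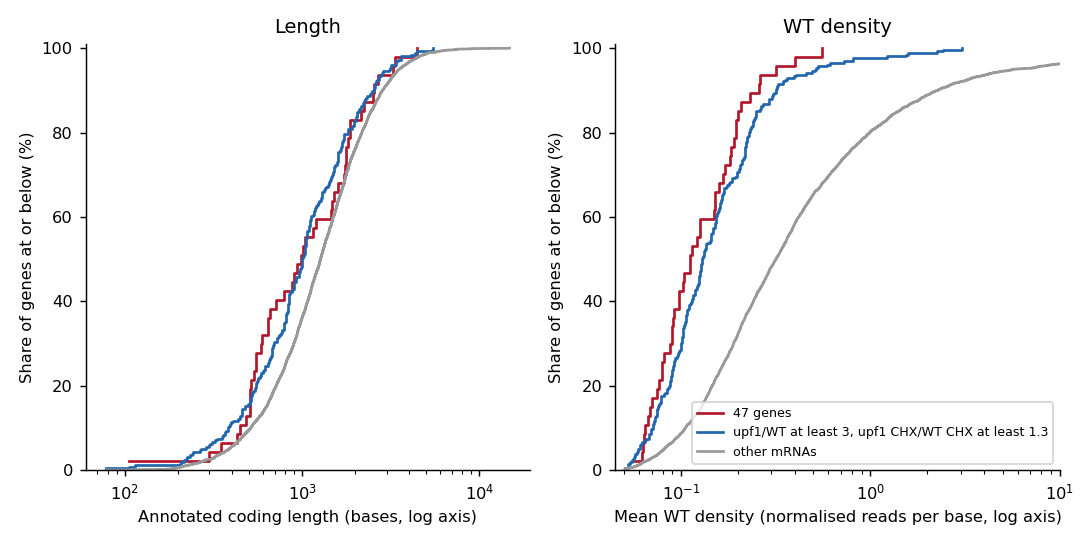
Cumulative share of genes (percent) by coding length in bases (left, log axis) and by mean WT density in normalised reads per base (right, log axis) for the 47 genes, the 256 genes with upf1 CHX/WT CHX of 1.3 or more and the other mRNAs at the wild-type limit, the last cut off at a density of 10. Both sets with upf1/WT of 3 or more lie to the left of the other mRNAs in density, and in length at the middle of the curves, with medians of 990 and 1002 bases.

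The genes lay on all 10 chromosomes, 10 of them on chromosome 1. Coordinates are those of the deposited table, with the build not given in the sources used here, and 5586 of the 5588 mRNAs found in the RefSeq table (assembly ASM23734v1) have the same coordinates there. Within 20 kb of the outermost annotated feature of a chromosome were 6 of the 47 (12.8%), 9.38% of the 256 and 2.84% of all mRNAs at the wild-type limit. They are NCAS_0I03200 (2559 bases from it), PRP21 (7903), NCAS_0I03160 (13816), LDB18 (14142), NCAS_0H00140 (18921) and FAR3 (19669). NCAS_0I03200 lies on chromosome 9, bases 600056 to 600652 on the plus strand, and HO, at 29568 bases from the outermost feature, on chromosome 4, bases 29569 to 31317 on the minus strand. Within 50 kb the shares were 17.0%, 17.6% and 8.35%.

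The gap to the upstream neighbour was over 1000 bases for 14 of the 47 (29.8%), 24.6% of the 256 and 13.4% of all. The upstream neighbour lay on the opposite strand for 28 (59.6%), 52.3% and 52.5%. An adjacent mRNA was among the 256 genes for 5 of the 47 (10.6%), for 23.0% of the 256 themselves and for 8.51% of all mRNAs at the limit. NCAS_0G02190 next to NCAS_0G02180 had a upf1/WT ratio of 5.38, FMP45 next to HBT1 one of 3.76, NCAS_0H00130 next to NCAS_0H00140 one of 6.12, NCAS_0B00390 next to DSE3 one of 3.09, and NCAS_0J02330 next to PRP21 one of 7.24. NCAS_0B07890 next to GAP1 (7.54) and NCAS_0I03210 next to NCAS_0I03200 (4.30) also exceeded the ratio of 3 but lay below the wild-type density limit. With these, 7 of the 47 (14.9%) had an adjacent mRNA at a ratio of 3 or more, against 32.8% of the 256 and 15.1% of all at the limit. None of the 47 overlapped another annotated feature on its own strand.

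An antisense non-coding transcript, a CUT (cryptic unstable), XUT (Xrn1-sensitive unstable) or SUT (stable unannotated), overlapped 12 of the 47 genes by at least 1 base (25.5%), 29.3% of the 256 and 21.2% of all mRNAs at the limit. At least 50% of the gene was covered in 6 (12.8%), 14.1% and 8.12%. Over PPT2 runs CUT0590, across all 507 bases, with mean densities of 0.0561 in upf1 and 0.0430 in WT. TAG1, an autophagy gene, is covered over 1749 of its 1761 bases by XUT0161, which had 0.0434 in upf1 and 0.00636 in WT, where TAG1 itself had 0.329 ± 0.0440 and 0.0978 ± 0.0255 (SD, n = 4 each). XUT0636 spans all 1593 bases of NCAS_0E01840 and had 0.299 in upf1 and 0.134 in WT, above the gene on the other strand. The kit marks strand, and the use of strand in counting was not given in the sources used here.

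In the list of 6 NMD factors, HRR25 is one of the 47 and NMD4 one of the 256. NMD4 had a upf1/WT ratio of 3.17 and a upf1 CHX/WT CHX ratio of 1.41. NMD2 and UPF3, the partners of Upf1, stood at 1.34 and 1.81 in upf1/WT, and at 0.812 and 0.993 in upf1 CHX/WT CHX. EBS1 stood at 1.84 and 1.12. At the limma threshold, 6 of the 6 were higher in WT CHX than in WT, beside 98.1% of the mRNAs. In upf1 CHX against upf1 3 were higher and 0 lower, beside 90.8% and 0.110%. NAM7 is among the 6 and had no reads in either group, so it could not pass there. In dcr1 upf1 against WT 4 were higher and 1, NAM7, was lower, beside 24.1% and 4.26% of the mRNAs.

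Of 19 documented NMD targets of S. cerevisiae found, 18 reached the wild-type limit, and TEN1 was one of the 47, while 8 were among the 256: CPA1, ALR1, EST1, EST2, EST3, MAK31, UGA1 and NMD4. The 47 and the 256 came from 5101 mRNAs at that limit. In dcr1 upf1 against WT 14 of the 19 were higher and 1 lower, beside 24.1% and 4.26% of the mRNAs, and their median log2 fold change was 1.25 against 0.06 over the mRNAs. In WT CHX against WT all 19 were higher, beside 98.1% of the mRNAs, with a median of 1.71 against 1.35 over the mRNAs. In upf1 CHX against upf1 17 were higher, beside 90.8%, with a median of 0.64 against 0.86. No member of either list passed in dcr1 upf1 against upf1.

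Other lists held at most 3 of the 47 each. The 47 and the 256 came from 5101 mRNAs at the wild-type limit, and no list was tested against that share. Among 51 membrane transporters at the wild-type limit were GAP1, MEP2 and VHT1, while ALR1 and DAL5 were among the 256. Of 60 genes of DNA repair and recombination, YEN1 was one of the 47 and 7 were among the 256. AMA1 stood beside 6 of the 256 in 14 meiosis and sporulation genes, TEN1 beside 7 in 31 telomere and kinetochore genes, and HO beside FIG2 in 21 genes of mating and silencing. The lists of decapping and 5′ decay (21 genes) and of general stress (21 genes) held 0 of the 47 and 0 of the 256, and amino acid biosynthesis (69 genes) held 0 of the 47 and 5 of the 256.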

How the data were processed

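Total RNA of 14 libraries was analysed from normalised read densities, a signal per base that the authors deposited. DESeq2, featureCounts 2.0.0, HISAT2 2.2.0 and Trim Galore stand in the submitters' processing notes without a role or order. Build and annotation were not given in the sources used here. ERCC RNA, added per the labels' protocols, was not analysed here. A density times its feature length was a whole multiple of a single step per library for 100% of values within 0.001, so reads were recovered. Of 8602 lines, 259 repeat a feature and were left out, leaving 8343.

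Groups came from sample titles. Densities were tested with limma 3.58.1 (statmod 1.5.0, R 4.3.3) as log2(density + 0.02), which understates changes of low features, with all 14 libraries in 1 model of 5 group means (9 residual degrees of freedom) and eBayes with trend and robust. A feature was tested at a mean density of at least 0.02, which left 7518 features and 5446 mRNAs, all 47 genes included, and called where its p, adjusted by Benjamini-Hochberg, was under 0.05. The procedure was tested on simulated data. An SE is that of the log2 fold change in this model.

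The genes, the lists and the tests were chosen with earlier results of these data known. The rule used upf1 against WT and upf1 CHX against WT CHX, so no test of either is given. Both were fitted as well, and the median log2 fold changes of upf1 against WT come from those fits. WT CHX against WT and upf1 CHX against upf1 use libraries that all chose the genes, so their counts past the threshold are descriptions. The compared groups share libraries: WT enters 2 of the comparisons with calls given, upf1 the other 2, and dcr1 upf1 a comparison of each kind. Named are the 10 genes highest in upf1/WT, the 8 highest in WT, the 5 largest and 5 smallest changes in upf1 CHX against upf1, the 3 of each in dcr1 upf1 against upf1, the 5 longest and 5 shortest, the 3 lowest in upf1 CHX/WT CHX, members of the lists, and 3 genes on each side of each limit, of which 1 is not reported here. CWC27, PRP21, RRI1, TAG1, SLX8, ECM3, NCAS_0J00530, NCAS_0A05250, NCAS_0H00140 and the adjacent genes were named after their values were seen where no part of that rule takes them. Replicate numbers of these 4 comparisons were not treated as pairs in the main fit. Alternatives were other pseudocounts, filters, scalings, limits, the compared groups alone, replicates 1 and 2 alone, a replicate block, and each library left out in turn. Scaling the tests by the mRNA ratio and voom on recovered reads were added after seeing the data. Promoter features were not analysed here, for want of a genome.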

Additional observations from a re-analysis of the deposited data

Results flagged for a closer look

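In 94 groups of 4 libraries (47 genes in upf1 and in WT), a library stood apart from the other 3 by Dixon's test at the 95% level in 3 cases, and chance alone gives about 1 in 20. POP3 had a density of 0.174 in WT replicate 2, below the 0.284 to 0.294 of the other WT libraries. LDB18 had 0.325 in upf1 replicate 4, below 0.396 to 0.400 in the other upf1 libraries. LDB18 also had 0.0993 in WT replicate 3, below 0.133 to 0.138 in the other WT libraries.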

How the results depend on the processing

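In place of 47 genes the rule chose 27 at a WT density limit of 0.1, 120 and 11 at upf1/WT limits of 2.5 and 4, 9 and 122 at upf1 CHX/WT CHX limits of 1.1 and 1.5, 12 under mRNA-ratio scaling, and 32 to 71 when a library was left out. In WT CHX against WT the higher calls numbered 37 to 47 over all settings. In upf1 CHX against upf1, mRNA-median scaling, quantile normalization and mRNA-ratio scaling gave 3, 3 and 3 higher and 30, 24 and 26 lower, and leaving out a library gave 28 to 41 higher. In dcr1 upf1 against upf1 a pseudocount of 0.1, replicates 1 and 2 alone and voom gave 1 lower each. In dcr1 upf1 against WT all settings gave 47 higher. An antisense overlap of at least 50% of the gene left 6 genes in place of 12.

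Under those 3 scalings, in that order, the log2 fold change of upf1 CHX against upf1 turned to −0.95, −0.94 and −0.93 for NCAS_0I03160, −0.85, −0.79 and −0.85 for NCAS_0G00850, −0.78, −0.82 and −0.73 for AMA1, −0.76, −0.80 and −0.71 for NCAS_0D04270, −0.60, −0.60 and −0.58 for HRR25, −0.50, −0.54 and −0.46 for YEN1, −0.44, −0.43 and −0.42 for MEP2, −0.32, −0.28 and −0.31 for TEN1, −0.28, −0.34 and −0.23 for GAP1, and −0.24, −0.29 and −0.21 for HO. It also turned for NCAS_0I03160 (−0.022 with the replicate block, −0.044 with replicates 1 and 2 alone, −0.10 to 0.13 with a library left out), NCAS_0G00850 (−0.010 to 0.25 with a library left out) and PPT2 (0.12 with replicates 1 and 2 alone). In WT CHX against WT, quantile normalization gave −0.033 for NCAS_0I03160 and −0.015 for AMA1. The scalings move treated libraries against untreated ones by construction, and the cause was not tested further. Of the values of named genes under alternatives, 38 turned, 592 kept direction and call, 16 gained a call and 17 lost it.

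Same-numbered libraries of the 4 comparisons with calls given had correlations of deviations of −0.0701 to 0.0745, so no pairing was seen. In a group of 2 libraries the deviations mirror each other, so this check is weak and cannot exclude a shared culture. With the replicate block 47 genes were higher in WT CHX against WT, 43 in upf1 CHX against upf1, 0 in dcr1 upf1 against upf1 and 47 in dcr1 upf1 against WT. For upf1 and WT the correlations were 0.365, 0.432, 0.209 and 0.354 for numbers 1 to 4, and the highest with another number were 0.400, 0.396, 0.264 and 0.489, above the own number in 3 of the 4. The treated and dcr1 upf1 groups hold replicates 1 and 2 alone. With 2 libraries in these groups and as few as 16 reads for a gene in WT, small changes are not detectable. Planned edgeR and DESeq2 fits were not run, since the deposited values are densities and not counts.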
